A study of Rattus norvegicus with 19 samples.

Results

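The genes of the rat major histocompatibility complex (MHC, named RT1 in the rat) and of antigen processing were followed through 19 left ventricle libraries, 1 per heart. The members were the 49 gene symbols that begin with RT1- and 9 genes named singly, B2m, Cd74, Ciita, Tap1, Tap2, Tapbp, Psmb8, Psmb9 and Psmb10. These were 58 of the 17455 gene symbols with counts, and 39 of the 58 passed the expression filter and were tested. Of the RT1 symbols, 39 were placed with class I and 10, those starting with RT1-B, RT1-D or RT1-H, with class II.

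The rats were 24-week-old Sprague-Dawley animals, labelled male and wildtype, in a model of heart failure with preserved ejection fraction (HFpEF). Disease was induced over 5 weeks with L-NAME, a blocker of nitric oxide synthases, at 0.5 g/L in the drinking water and a high-fat diet with 60% of its energy from lard. Hearts taken at week 5 formed the groups control 5w and HFpEF, with 3 libraries each. The other groups were taken at week 9: control 9w (3 libraries), untreated (3), EMPA (2), PFD (2) and EMPA + PFD (3). Both control groups were healthy animals fed normal chow without L-NAME. The untreated group had the induced disease and then received PBS for 4 weeks, whereas the drug groups had the same induction followed by 4 weeks of daily oral dosing. EMPA, an inhibitor of the renal glucose transporter SGLT2, was given at 0.35 g/kg per day, and PFD, an antifibrotic drug, at 0.3 g/kg per day. The study left out 1 further EMPA sample and 1 further PFD sample. Each library held between 7430539 and 13017754 counts.

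The libraries carried the markers of heart muscle, but not evenly. Levels are given in CPM, counts per 1000000 counts after scaling of the libraries by TMM. The summed level of 5 cardiomyocyte genes (5 of 5 present, Myh6 with most counts) was 65294, 25580 and 28572 CPM in control 5w and 8005, 16449 and 24667 CPM in HFpEF. HFpEF 1 was the lowest of the 19 libraries and untreated 2, with 15245 CPM, the next. Sln, a gene of atrial muscle, reached 156, 0.984 and 695 CPM in control 9w and 518 CPM in untreated 2. By this marker control 9w 1, control 9w 3 and untreated 2 stood apart from the others. The same libraries were highest for the atrial markers Myl4 and Myl7, but Myl7 also had 694, 293 and 307 CPM in control 5w. Nppa, also atrial, had 2583, 5794 and 4311 CPM in control 5w and 5124 in EMPA 2, against 3622 in control 9w 1. Leaving out the Sln-high libraries therefore does not remove all atrial signal. The Y-linked gene Eif2s3y was counted 613 to 1321 times in each of 12 libraries and not once in the other 7, namely HFpEF 1, HFpEF 3, the 3 untreated and the 2 PFD libraries, against the label male. Ddx3y, the other Y-linked gene in the data, was near the floor and did not show this split. It was counted 6 to 17 times in the 7 and 1 to 23 times in the 12. Differences of untreated from control 9w, from EMPA and from EMPA + PFD therefore cannot be told apart from this split, since all libraries of those 3 groups had counts and no untreated library did. RT1-CE16, RT1-A3 and RT1-Bb did not follow it over the other groups, being present in control 9w and EMPA + PFD, which had Eif2s3y counts, and at or near 0 in HFpEF 1 and HFpEF 3, which had none. Calls lost without the libraries lowest in cardiomyocyte markers (a fit chosen after seeing the data) are named where they occur. So are calls lost with a term for Eif2s3y, which rests on HFpEF, the only group with both kinds of library. Calls lost without the Sln-high libraries, another fit chosen after seeing the data, are named outside the comparisons with control 9w. In those comparisons it leaves control 9w with 1 library, so no call is read from it.

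Class I molecules are made of a heavy chain and the light chain B2m, and show peptides from inside the cell to CD8 T cells and natural killer cells. The immunoproteasome cuts these peptides, the transporter of Tap1 and Tap2 carries them into the endoplasmic reticulum, and tapasin (Tapbp) helps to load them. Class II molecules show peptides from the endosomes to CD4 T cells, are carried by macrophages, dendritic cells and B cells more than by heart muscle cells, and are switched on by the coactivator Ciita. Rat haplotypes differ in which RT1 genes they carry and in the sequence of those genes, and no genotype of these animals was available. Many RT1 genes are near-identical copies, and the settings used for reads that fit several genes were not given in the sources used here. Counts of single RT1 genes are therefore uncertain as to which copy they came from.

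The 58 members were first sorted by raw counts. A gene was called low when its highest library had under 20 counts, on/off when its highest library had at least 20 and its lowest at most 3, and graded when even its lowest library had more than 3. By this rule 20 members were low, 8 were on/off and 30 were graded, and of the 20 low members 4 had 0 counts in all 19 libraries (RT1-CE12, RT1-Cl, RT1-M1-5 and RT1-N1). The on/off share was 13.8% of the members and 5.04% of all 17455 genes. An on/off gene was called clean when, in each of the 7 groups, its libraries were either all at most 3 counts or all at least 10. This held for 3 members, RT1-CE16, RT1-A3 and RT1-Bb, which is 5.17% of the members, and for 6 genes or 0.0344% of the whole data. The other 3 clean genes were Ltk and RGD1306750, off only in control 5w, and Olr1424, on only in control 5w. The 5 on/off members that were not clean were RT1-N2, RT1-CE2, RT1-CE3, RT1-DMa and RT1-S2, and the 9 genes named singly were all graded.

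RT1-CE16, a class I gene, had 1, 0 and 0 counts in control 5w, 3, 1 and 3 in HFpEF and 0 and 0 in EMPA. In the groups that carried it, it had 922, 825 and 913 counts in control 9w, 583, 684 and 616 in untreated, 463 and 545 in PFD, and 426, 308 and 720 in EMPA + PFD. The lowest library of the second set stood far above the highest of the first, and no group was mixed. On the CPM scale the means were 98.8 ± 6.87 in control 9w (SD, n = 3), 60.7 ± 4.75 in untreated (SD, n = 3), 53.4 ± 3.78 in PFD (SD, n = 2) and 54.1 ± 19.5 in EMPA + PFD (SD, n = 3). The control 9w libraries lay above the other 8 that carried the gene, and among those 8 the groups overlapped. The ratio of its counts per library size in control 9w to those in control 5w was 3550, with an exact 95% counting interval from 637 to 140271. That of untreated to HFpEF was 310 (150 to 772).

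RT1-A3, one of the classical class I heavy chains, had 57, 72 and 65 counts in control 9w, 41, 42 and 53 in untreated, 36 and 37 in PFD, and 20, 20 and 51 in EMPA + PFD. Of the other 8 libraries, control 5w 1 had 1 count and 7 had 0. RT1-Bb, the beta chain of the class II molecule RT1.B, had 195, 147 and 183 counts in control 9w and 129, 311 and 104 in untreated. It had 110 and 143 counts in PFD and 121, 70 and 226 in EMPA + PFD, and 0 in the remaining 8 libraries. RT1-CE16, RT1-A3 and RT1-Bb were thus present in the same 11 libraries and at or near 0 in the same 8, in which the drug group EMPA stood with the week 5 hearts.

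Against groups without counts only a lower limit of the fold difference can be given, taken at a floor of 3 counts in each such library. RT1-Bb was at least 77.3-fold higher in control 9w than in control 5w and at least 65.7-fold higher in untreated than in HFpEF. RT1-A3 was at least 17.6-fold higher in untreated than in HFpEF, and 259-fold higher in control 9w than in control 5w by its counts, with a 95% interval from 45.9 to 10279. Both genes were on well above the floor, and the intervals and floors cover counting error only.

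The 3 clean genes did not lie side by side. All 47 RT1 symbols listed by RefSeq for the rat assembly GRCr8 were on chromosome 20, together with Tap1, Tap2, Tapbp, Psmb8 and Psmb9. In that order RT1-CE16 had RT1-T24-1 before it and RT1-CE15 after it, RT1-Bb lay between RT1-Ba and RT1-DOb, and RT1-A3 lay between RT1-Ha and RT1-A2. RT1-CE15 varied 2.17-fold over the 19 libraries, RT1-Ba 5.50-fold, RT1-DOb 7.18-fold, RT1-A2 11.9-fold and RT1-T24-1 22.8-fold. All of these had counts in each library, while RT1-Ha had at most 2 counts throughout. RT1-A2 and RT1-T24-1 had their lowest group means in control 9w, where the 3 clean genes were on. The counts were made on the older assembly rn6, so these positions describe the order of genes in the reference only.

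Several members ran the other way, low or absent in control 9w. RT1-N2, a nonclassical class I gene, had 0 counts in the 3 control 9w libraries and in EMPA + PFD 3. It had 16, 19 and 11 counts in control 5w, 33, 24 and 19 in HFpEF, 8, 13 and 7 in untreated, 8 and 10 in EMPA, 6 and 14 in PFD, and 6 and 5 in the other EMPA + PFD libraries. The gene was thus detected in 15 libraries and absent from 4, and it was at least 3.83-fold higher in control 5w than in control 9w and at least 2.62-fold higher in untreated than in control 9w.

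RT1-CE14 had 1.92, 1.11 and 1.30 CPM in control 9w and 0.940 CPM in EMPA + PFD 3, against 6.39 and 6.93 CPM in the other EMPA + PFD libraries. It had 11.0, 8.07 and 9.39 CPM in control 5w, 18.7, 22.6 and 15.6 in HFpEF, 7.81, 9.09 and 8.43 in untreated, 20.1 and 17.4 in EMPA, and 11.4 and 8.33 in PFD. The 4 libraries without RT1-N2 were the 4 lowest for RT1-CE14, and HFpEF and EMPA were the 2 highest groups and overlapped each other. Over its whole range the gene varied 24.0-fold.

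RT1-A2, a classical class I heavy chain next to RT1-A3, had 24.9, 25.5 and 22.2 CPM in control 9w and 13.2 CPM in EMPA + PFD 3. Its level was 89.2, 115 and 108 CPM in control 5w, 154, 131 and 156 in HFpEF, 80.6, 73.9 and 83.0 in untreated, 122 and 101 in EMPA, 78.3 and 64.3 in PFD, and 52.0 and 43.3 in the other EMPA + PFD libraries. The control 9w group was below all other groups apart from EMPA + PFD 3, and HFpEF was above them all. RT1-CE5 had 13.2, 16.4 and 11.1 CPM in control 9w and 9.72 CPM in EMPA + PFD 3, and between 19.4 and 72.3 CPM in the other 15. RT1-T24-1 had 1.24, 1.72 and 1.50 CPM in control 9w and 0.836 CPM in EMPA + PFD 3, and between 2.63 and 19.1 CPM in the other 15.

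The 4 libraries without RT1-N2 were then used to look through the data, a step chosen after the values were seen. Of 12111 genes other than RT1-N2 that reached 20 counts in some library, 20 were lower in each of the 4 than in each of the other 15. Among the 20 were RT1-CE14, RT1-A2, RT1-CE5 and RT1-T24-1, which had been seen to be low there before the search, so this count is a description only. For RT1-CE14 the lowest of the 15 stood 3.33-fold above the highest of the 4. EMPA + PFD 3 also had the most counts of RT1-CE16, RT1-A3 and RT1-Bb in its group.

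Further class I genes and Tap2 were on in all libraries and highest in control 9w. RT1-A1, a classical class I heavy chain, had 6.41, 5.97 and 6.61 CPM in control 5w, 15.0, 10.5 and 10.5 in HFpEF, 35.4, 33.5 and 33.8 in control 9w, and 26.2, 20.4 and 26.6 in untreated. In the drug groups it had 17.2 and 7.29 CPM in EMPA, 21.5 and 21.8 in PFD, and 15.3, 13.8 and 27.7 in EMPA + PFD. Control 9w lay above all other libraries and control 5w below all of them, with EMPA + PFD 3 the highest outside control 9w. Tap2, a chain of the peptide transporter, had 6.60, 6.21 and 6.69 CPM in control 5w, 10.4, 15.4 and 12.8 in HFpEF, 26.9, 31.9 and 23.8 in control 9w, and 19.7, 23.9 and 21.1 in untreated. It had 12.4 and 8.26 CPM in EMPA, 20.1 and 18.0 in PFD, and 17.3, 15.2 and 19.2 in EMPA + PFD. The group means of both genes stood in the order control 5w, then HFpEF and EMPA, EMPA + PFD, PFD, untreated and control 9w, where HFpEF and EMPA overlapped and changed places between the genes.

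RT1-S3, a nonclassical class I gene, had 73.7, 95.2 and 95.5 CPM in control 5w, 201, 221 and 193 in HFpEF, 308, 326 and 269 in control 9w, and 177, 192 and 179 in untreated. It had 171 and 145 CPM in EMPA, 187 and 175 in PFD, and 179, 123 and 160 in EMPA + PFD. Control 9w was above and control 5w below all other libraries, and HFpEF was above untreated by a narrow margin. RT1-CE10 had 12.4, 9.00 and 9.23 CPM in control 5w, 16.2, 17.1 and 17.1 in HFpEF, 44.2, 50.9 and 33.4 in control 9w, 15.6, 15.4 and 25.4 in untreated, and 11.0 to 20.2 CPM in the 7 drug libraries. RT1-T24-3 had 27.3, 30.4 and 33.7 CPM in control 5w, 47.3, 145 and 73.6 in HFpEF, 71.3, 89.4 and 41.9 in control 9w, and 53.1, 43.6 and 53.1 in untreated. RT1-T24-3 had 90.2 and 59.4 CPM in EMPA, 49.8 and 41.5 in PFD, and 45.3, 25.2 and 33.6 in EMPA + PFD. Unlike the genes before it, RT1-T24-3 had its highest group means in HFpEF (88.6 CPM) and EMPA (74.8 CPM), ahead of control 9w (67.5 CPM), and these 3 groups overlapped, with HFpEF 2 far above the others.

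**Figure D1:**
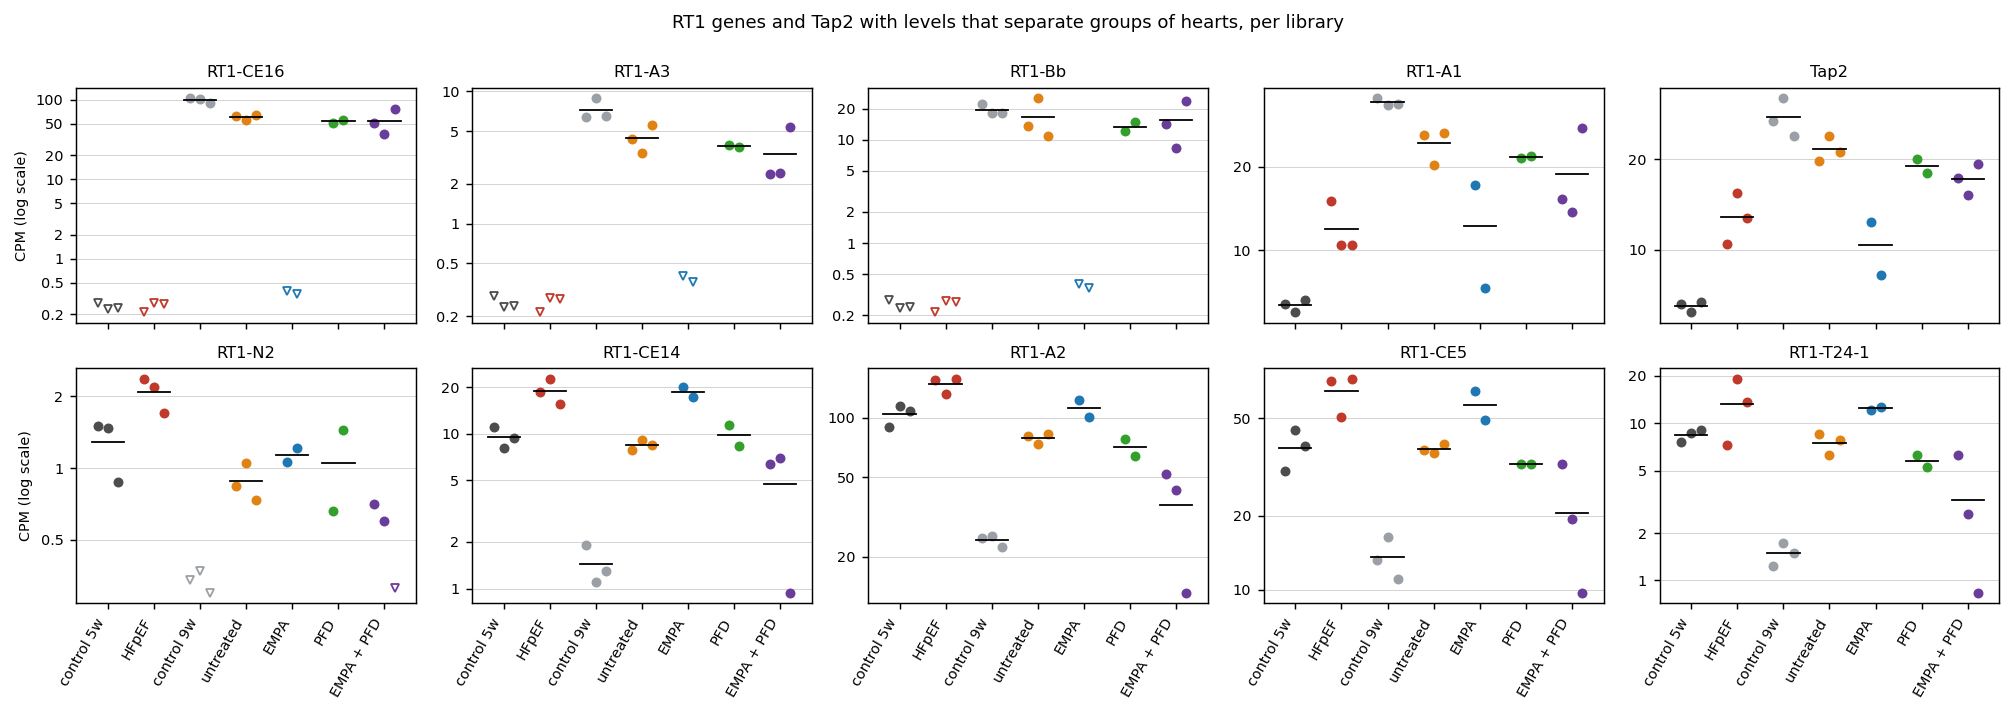
Level of 9 RT1 genes and Tap2 in each of the 19 libraries, in CPM on a log scale, with the 7 groups along the horizontal axis. Filled points are libraries, open triangles are libraries with at most 3 counts drawn at the level of 3 counts, and bars are group means where all libraries of the group had more; RT1-CE16, RT1-A3 and RT1-Bb are under that level in control 5w, HFpEF and EMPA, and RT1-N2 in control 9w.

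Of the 8 pairwise comparisons made, that of the control groups had the most calls. Comparing control 9w with control 5w asks what differed between the hearts of animals without induced disease at the end points of the study. A gene was called when the adjusted p of edgeR's quasi-likelihood test with Benjamini and Hochberg adjustment over 12388 genes was under 0.05 and its fold change at least 2. In this comparison 24 of the 39 tested members were called, 13 higher and 11 lower in control 9w, beside 14.7% of all tested genes (7.46% higher and 7.21% lower). Among the 24 were RT1-CE16, RT1-A3, RT1-Bb, RT1-N2, RT1-CE2 and RT1-CE3, already sorted as on/off from the same counts, so nothing is read from the share. With at least 10 counts required in every library 13 members were called. The members had a median log2 difference of 0.43, and all tested genes of -0.04. Of 22 tested class I genes 11 were called higher and 5 lower, with a median of 1.46, and of 8 tested class II genes 1 was called higher and 4 lower, with a median of -1.60. Endothelial markers were higher together with the class I genes. The sum of 4 of 4 (Vwf with most counts, none at 0) was 1109, 939 and 1067 CPM in control 5w and 2412, 2252 and 2124 in control 9w, without overlap, and 2 of the 4 were called, Pecam1 with a log2 difference of 1.56 ± 0.21 and Vwf with 1.23 ± 0.27. The atrial list had 4 of 4 genes above 0, 1 called higher and a median of 3.32. The part of endothelial or atrial content in the class I result was not tested.

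The class I genes that rose included RT1-S3, with a log2 difference of 1.77 ± 0.15 (SE, adjusted p = 9.83e-06), RT1-A1 with 2.43 ± 0.29 (adjusted p = 0.000133) and RT1-CE10 with 2.07 ± 0.23 (adjusted p = 9.74e-05). RT1-CE4 rose by 1.81 ± 0.25 and RT1-T24-2 by 2.75 ± 0.48 on the same scale. RT1-CE1, RT1-CE2 and RT1-CE3 also rose, by 2.07, 2.51 and 2.59, from single-digit or low double-digit counts, and RT1-CE16, RT1-A3 and RT1-Bb were called with the ratios and the lower limit given above. Tap2 rose by 2.08 ± 0.18 (adjusted p = 1.36e-05), while Tap1, its partner in the transporter, was not called. RT1-T24-3 rose by 1.14 ± 0.35 (adjusted p = 0.0218), a call that was lost when any 1 of 4 of the 6 libraries was left out. The class I genes that fell were RT1-N2, RT1-CE14 with -2.71 ± 0.48, RT1-T24-1 with -2.49 ± 0.51, RT1-A2 with -2.10 ± 0.33 and RT1-CE5 with -1.49 ± 0.31. Without the Sln-high libraries, the log2 differences of RT1-CE5 and RT1-T24-1 were -1.21 and -2.28. That fit leaves 1 control group with 1 library, so no call is read from it. Neighbours on the chromosome thus went opposite ways, RT1-A3 and RT1-A1 up and RT1-A2, which lies between them, down.

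Of the class II genes and their partners, RT1-Da, RT1-Db1, RT1-Ba, Cd74 and Ciita had their highest group means in week 5 hearts, whereas RT1-Bb was at 0 there and RT1-DMb was highest in EMPA + PFD (3.91 ± 2.43 CPM, SD, n = 3), where it overlapped HFpEF. RT1-Da, the alpha chain of RT1.D, had 169, 483 and 466 CPM in control 5w, 417, 104 and 209 in HFpEF, 67.5, 47.2 and 61.4 in control 9w, and 94.4, 166 and 69.2 in untreated. It had 107 and 82.0 CPM in EMPA, 84.7 and 96.9 in PFD, and 127, 63.0 and 107 in EMPA + PFD. All control 9w libraries were below all control 5w libraries, and control 5w 1, HFpEF 2 and HFpEF 3 were lower than the rest of their groups. RT1-Db1, the matching beta chain, had 43.4, 97.9 and 94.5 CPM in control 5w, 107, 35.9 and 52.3 in HFpEF, and 12.0, 11.2 and 11.4 in control 9w. It had 21.3, 38.9 and 18.8 CPM in untreated and 10.9 to 31.3 CPM in the drug libraries. The high libraries were the same as for RT1-Da, and whether fewer cells carried these genes or each cell held less RNA cannot be told apart in whole tissue.

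Cd74, the invariant chain that guides class II molecules to the endosomes, had 871, 1430 and 1347 CPM in control 5w, 1198, 501 and 683 in HFpEF, 328, 338 and 287 in control 9w, and 646, 523 and 467 in untreated. It had 498 and 276 CPM in EMPA, 499 and 671 in PFD, and 709, 571 and 652 in EMPA + PFD. Control 9w was below all libraries but EMPA 2, and it did not overlap untreated. Ciita, the coactivator of class II genes, had 10.3, 20.1 and 18.0 CPM in control 5w, 32.7, 6.24 and 15.9 in HFpEF, 3.61, 3.20 and 3.99 in control 9w, 5.70, 8.77 and 4.22 in untreated, and 4.78 to 7.81 CPM in the drug libraries. HFpEF 1 held the most Ciita, and control 9w the least without overlap. RT1-Ba, the alpha chain of RT1.B, had 17.5, 50.2 and 50.5 CPM in control 5w, 43.8, 12.7 and 18.9 in HFpEF, and 18.4, 14.3 and 14.8 in control 9w. Its control groups overlapped, and it was present in the libraries without RT1-Bb.

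In control 9w against control 5w, RT1-Da fell by 2.67 ± 0.50 on the log2 scale (SE, adjusted p = 0.0015) and RT1-Db1 by 2.77 ± 0.45 (adjusted p = 0.00069). Cd74 fell by 1.94 ± 0.31 (adjusted p = 0.000596) and Ciita by 2.16 ± 0.47 (adjusted p = 0.00355). RT1-DOa, a chain of the molecule that tunes class II peptide loading, fell by 2.13 ± 0.47. Each of these 5 calls was kept without any 1 of the 6 libraries. Without the Sln-high libraries, which leaves control 9w with 1 library, the log2 difference of RT1-DOa was -1.80. RT1-Ba fell by 1.32 ± 0.49 (adjusted p = 0.0473), and that call was kept in 1 of the 6 fits without 1 library and lost with no filter beyond 1 count.

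Macrophage markers fell with the class II genes between the control groups. The sum of 7 of 7 macrophage markers (Csf1r with most counts, 27.8% of the sum, and none at 0) was 341, 605 and 535 CPM in control 5w, 909, 294 and 581 in HFpEF, 214, 170 and 222 in control 9w, and 239, 429 and 225 in untreated. It was 255 and 170 CPM in EMPA, 211 and 195 in PFD, and 179, 131 and 236 in EMPA + PFD. The libraries high in class II genes, control 5w 2, control 5w 3 and HFpEF 1, were among the highest for macrophage markers, and untreated 2 was the highest of its group for both. In control 9w against control 5w, 5 of the 7 markers fell, and the list had a median log2 difference of -1.65. The differences were -1.65 for Cd68, -1.83 for Csf1r, -2.20 for Adgre1, -1.64 for C1qa and -1.99 for Itgam. Spi1, a transcription factor of macrophages, fell by 1.49 ± 0.24 (adjusted p = 0.000647), and the lysosomal proteases Ctss and Lgmn by 1.82 and 1.27. In HFpEF against control 5w, by contrast, the macrophage list had a median of 0.48 and the tested class II genes one of -0.31. The sum of 4 dendritic cell markers (4 of 5 listed, Itgax being absent from the data, Zbtb46 with most counts) was 35.9, 50.7 and 45.2 CPM in control 5w and 69.4, 105 and 57.2 in control 9w, with Clec9a called higher and Xcr1 lower. The dendritic list had a median of -0.39 with 2 of 4 genes above 0, so its sum and its median differed in sign, and Flt3 had 1.04, 7.29 and 5.49 CPM in control 5w and 1.47, 2.09 and 1.89 in control 9w. The part of these cells in the class II result was not tested. The sum of 5 T and natural killer cell markers was also lower in control 9w, with 65.0, 110 and 96.2 CPM in control 5w and 36.3, 25.1 and 37.1 in control 9w, without overlap, and Cd4 called lower. Cd4 held 67.8% of this sum over the libraries, and the list had a median of only -0.23, with 1 of 5 genes above 0. Nkg7 was higher in control 9w, with 3.86, 2.79 and 3.34 CPM in control 5w and 7.11, 6.15 and 5.09 in control 9w. Cd8a overlapped between the control groups. The sum of 3 B cell markers, Cd79a being absent from the data, was at most 5.50 CPM in each library.

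**Figure D2:**
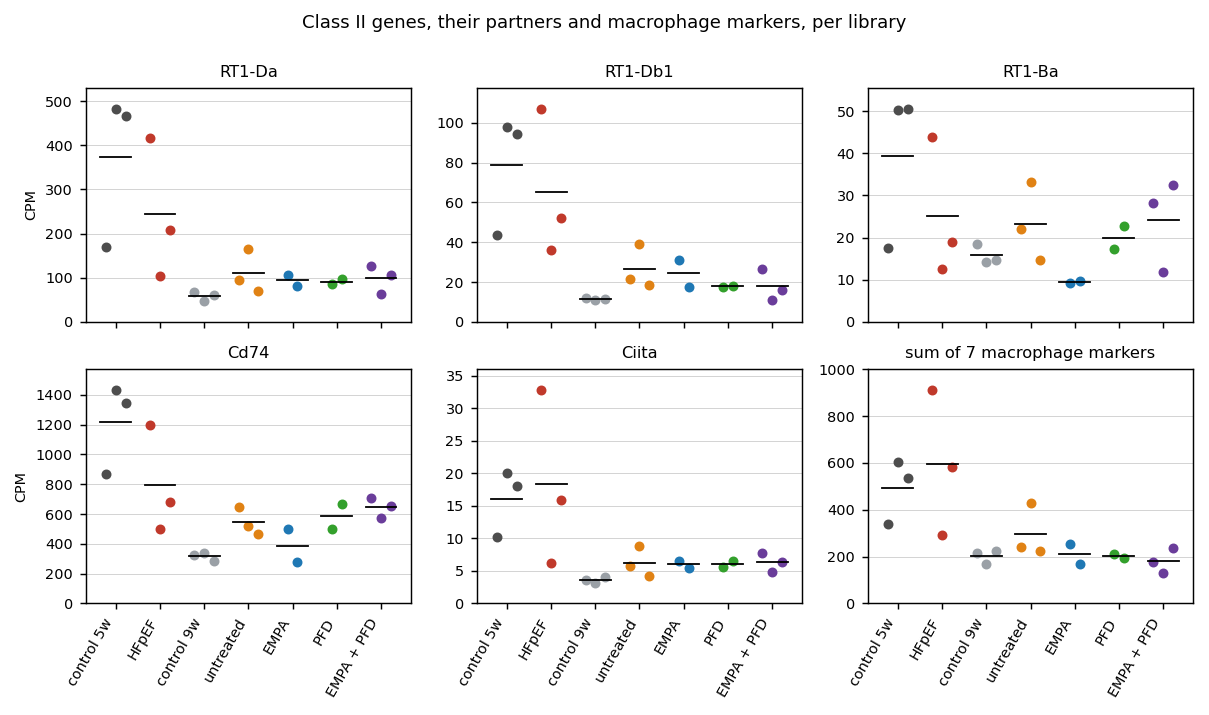
Level in CPM, on a linear scale from 0, of RT1-Da, RT1-Db1, RT1-Ba, Cd74, Ciita and the sum of 7 macrophage markers in each library, with the 7 groups along the horizontal axis. Points are libraries and bars group means; control 9w is low in all 6 panels, and the HFpEF libraries are spread widely, from 104 to 417 CPM for RT1-Da.

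The graded genes of class I peptide supply varied over the 19 libraries from 1.71-fold for Tapbp and 1.79-fold for B2m to 5.48-fold for Psmb8. Psmb8, a catalytic subunit of the immunoproteasome, had 41.4, 30.2 and 34.5 CPM in control 5w, 53.2, 80.1 and 68.3 in HFpEF, 30.2, 27.6 and 24.7 in control 9w, and 43.4, 39.4 and 46.8 in untreated. It had 67.0 and 46.3 CPM in EMPA, 34.3 and 41.6 in PFD, and 30.5, 18.2 and 14.6 in EMPA + PFD. Both disease groups lay above their controls without overlap, and EMPA + PFD lay below untreated without overlap. Psmb9, another catalytic subunit, had 29.6, 27.5 and 26.8 CPM in control 5w, 44.2, 66.1 and 57.1 in HFpEF, 45.4, 61.1 and 33.2 in control 9w, and 53.7, 55.7 and 56.8 in untreated. It had 50.7 and 43.4 CPM in EMPA, 55.2 and 38.7 in PFD, and 34.8, 25.6 and 24.7 in EMPA + PFD. The week 5 groups did not overlap, the week 9 disease and control groups did, and EMPA + PFD was again below untreated.

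Psmb10, the remaining inducible subunit, had 37.9, 26.8 and 30.1 CPM in control 5w, 49.7, 65.8 and 53.0 in HFpEF, 44.4, 55.8 and 37.5 in control 9w, 48.1, 50.1 and 54.5 in untreated, and 25.9, 28.6 and 27.5 in EMPA + PFD. B2m had 1805, 1900 and 1746 CPM in control 5w, 2749, 2833 and 3120 in HFpEF, 2553, 2735 and 2051 in control 9w, 2488, 2198 and 2582 in untreated, and 1921, 1772 and 1884 in EMPA + PFD. Tap1 had 42.4, 37.9 and 41.9 CPM in control 5w, 55.8, 76.0 and 65.0 in HFpEF, 59.5, 77.5 and 49.6 in control 9w, 74.4, 64.7 and 81.7 in untreated, and 46.2, 40.1 and 42.3 in EMPA + PFD. For Psmb10, B2m and Tap1, HFpEF lay above control 5w and EMPA + PFD below untreated without overlap, and control 9w overlapped untreated. How many of all genes separate these groups in the same way was not counted, so nothing is read from how many members do. In EMPA and PFD, Psmb10 ranged from 37.2 to 50.9 CPM, B2m from 2178 to 2702 and Tap1 from 46.5 to 82.9. Tapbp ranged from 47.1 CPM in EMPA + PFD 2 to 80.7 CPM in untreated 3.

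At week 5, HFpEF against control 5w asks what differed once the disease was set up. Of 39 tested members 2 were called, both higher, beside 8.69% of all tested genes (4.28% higher), and 2 calls are too few to read a share from. RT1-S3 rose by 1.22 ± 0.15 (SE, adjusted p = 0.000302) and RT1-T24-3 by 1.54 ± 0.35 (adjusted p = 0.0105), the latter not called without HFpEF 2 or in a fit of the compared groups alone. Most other members lay above 0 without reaching a 2-fold difference or the adjusted p, and 31 of 39 had a positive log2 difference, with a median of 0.69 against 0.02 for all genes. In class I the number was 21 of 22 with a median of 0.76, and class II had 2 of 8 with a median of -0.31. Psmb9 had a log2 difference of 1.00 ± 0.21 (adjusted p = 0.007), just under the fold threshold, Tap2 0.98 ± 0.18, Psmb8 0.93 ± 0.23, Psmb10 0.83 ± 0.16, Tap1 0.69 ± 0.17 and B2m 0.68 ± 0.16, and none of these 6 was called. By adjusted p alone 13 members passed, all higher. The markers of T and natural killer cells were also higher in HFpEF, with 3 of 5 called (Cd3g, Cd8a and Nkg7), and Actc1 of the 5 cardiomyocyte markers fell by 2.00 ± 0.55, with 0 of the 5 above 0 and a median of -1.14. Of the 4 endothelial markers 4 lay above 0, with a median of 0.52, and Vwf rose by 1.01 ± 0.27. The atrial list had 0 of 4 genes above 0, none called and a median of -1.58. The part of these cells in the member values was not tested. With a term for Eif2s3y counts, 7 members were called, RT1-S3, RT1-T24-3, RT1-T24-2, Tap2, Psmb8, Psmb9 and Psmb10. Without the libraries lowest in cardiomyocyte markers, a fit chosen after seeing the data, 7 were called, with Cd74 lower and the others higher. All genes called in these fits are not counted here, so no share is read from either 7.

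At week 9, untreated against control 9w asks what the disease left without a drug. Here 6 of 39 members were called, 5 higher and 1 lower, beside 0.912% of all tested genes (0.339% higher and 0.573% lower). RT1-N2 was 1 of the 6 and had been sorted as on/off from the same counts. RT1-CE14 rose by 2.54 ± 0.48 (SE, adjusted p = 0.0242), RT1-T24-1 by 2.33 ± 0.51 (adjusted p = 0.0327), RT1-A2 by 1.71 ± 0.32 (adjusted p = 0.0236) and RT1-CE5 by 1.47 ± 0.31 (adjusted p = 0.0305). RT1-N2 rose at least 2.62-fold, and RT1-CE10 fell by 1.19 ± 0.23 (adjusted p = 0.0238). The 5 that rose were the 5 members low in control 9w and EMPA + PFD 3. All 6 calls were lost without control 9w 1, without control 9w 2 or without untreated 1. With a term for Eif2s3y no member was called, but neither of these groups held both kinds of library, so that term rests on HFpEF alone. The fold differences stayed close to these values in the fits without 1 library, from 1.65 to 1.76 for RT1-A2, 2.39 to 2.80 for RT1-CE14, 1.34 to 1.63 for RT1-CE5 and 2.22 to 2.45 for RT1-T24-1, and it was the adjusted p that passed 0.05. No call is read from the fit without the 3 libraries highest in Sln, which leaves control 9w with 1 library. In a fit of the compared groups alone RT1-CE10 was not called and RT1-N2 did not pass the filter. The median of the members was 0.13, beside 0.01 for all genes. Class I had 9 of 22 genes above 0 and a median of -0.14, and class II 7 of 8 and 0.59. The macrophage list had 7 of 7 above 0 and a median of 0.56, and the interferon-induced list 2 of 7 and -0.84. The atrial list had 0 of 4 above 0 and a median of -0.75. The sum of the T and natural killer cell markers was 77.9, 90.0 and 49.6 CPM in untreated and 36.3, 25.1 and 37.1 in control 9w, without overlap, with Cd3e called higher and a list median of 1.12. The part of these lists in the result was not tested.

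The disease effects at week 9 and week 5 were compared directly as a difference of differences, in which 10 members were called, 2 higher and 8 lower, beside 12% of all tested genes (6.35% higher and 5.67% lower). Among the 10 were RT1-N2, RT1-CE16 and RT1-CE3, already sorted as on/off from the same counts, so nothing is read from the share. With at least 10 counts required in every library fewer members were called. RT1-S3 had the lowest adjusted p, with a difference of -1.93 ± 0.21 (SE, adjusted p = 0.000343), and Tap2 a difference of -1.33 ± 0.25. RT1-S3, Tap2, RT1-CE10, RT1-N2 and RT1-T24-3 kept the call without any 1 of the 12 libraries. No call is read from the fit without the Sln-high libraries, which leaves control 9w with 1 library. The calls of RT1-A1, RT1-CE16 and RT1-CE3 were lost without the libraries lowest in cardiomyocyte markers, and those of Cd74, RT1-CE3 and RT1-T24-2 with a term for Eif2s3y. Those of Cd74 and RT1-CE3 were also lost in a fit of the compared groups alone, and that of RT1-CE3 with DESeq2 and with no filter beyond 1 count. The median of the members was -0.39 and that of all genes -0.02. Other lists differed in the same comparison. Of the interferon-induced genes 4 of 7 were called lower, with a median of -1.66. The endothelial list had 0 of 4 genes above 0, 1 called lower and a median of -0.87. The cardiomyocyte list had 5 of 5 above 0, 1 called higher and a median of 1.655. Their part in the result was not tested.

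Between untreated and HFpEF, the diseased hearts 4 weeks apart, 3 of 39 members were called, all higher, beside 0.194% of all tested genes (0.113% higher). These were RT1-CE16, RT1-A3 and RT1-Bb, already sorted as on/off from the same counts and past the filter through the groups where they were on, so nothing is read from their share. With at least 10 counts required in every library 0 members were called. DESeq2 called 8 members here, and 5 were called with a term for Eif2s3y, and 5 without the Sln-high libraries, each time with these 3 among them. In a fit of the compared groups alone RT1-CE16 was called and RT1-A3 and RT1-Bb were not. The members had a median of -0.14 beside -0.01 for all genes, and the comparison shares its libraries with the others.

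EMPA + PFD against untreated asks what the combined drugs altered. Of 39 members 2 were called, both lower, beside 3.82% of all tested genes (1.48% lower). Psmb8 fell by 1.03 ± 0.24 (SE, adjusted p = 0.0189) and RT1-A2 by 1.13 ± 0.32 (adjusted p = 0.0356), and both calls were lost without untreated 2, untreated 3, EMPA + PFD 2 or EMPA + PFD 3. Without 1 library the log2 difference ran from -1.38 to -0.81 for Psmb8 and from -1.47 to -0.71 for RT1-A2, each smallest without EMPA + PFD 3, the library with the lowest level of both. The other members of peptide supply lay the same way with smaller differences, and 7 of 39 had a positive log2 difference, with a median of -0.52 against -0.03 for all genes. Psmb9 had -0.97 ± 0.21 (adjusted p = 0.0152), Psmb10 -0.90 ± 0.16 (adjusted p = 0.0085), Tap1 -0.78 ± 0.18 (adjusted p = 0.0179) and Tapbp -0.50 ± 0.11 (adjusted p = 0.0182), under the 2-fold threshold. B2m had -0.38 (adjusted p = 0.117). By adjusted p alone 9 members passed, all lower. Markers of several cell types differed between these groups, though of the next 3 lists only the endothelial sum did so without overlap. The endothelial sum was 1871, 2226 and 1935 CPM in untreated and 1298, 1209 and 1296 in EMPA + PFD, with a list median of -0.71. The T and natural killer cell list (5 of 5, Cd4 with most counts) had a median of -1.26. Its sums overlapped, with 77.9, 90.0 and 49.6 CPM in untreated and 49.9, 25.9 and 54.0 in EMPA + PFD. The cardiomyocyte list had a median of 0.80, with 5 of 5 genes above 0. Its sums also overlapped, with 49123, 15245 and 39671 CPM in untreated and 46152, 67709 and 58156 in EMPA + PFD. No gene of these 3 lists was called. The macrophage list had a median of -0.59, with 0 of 7 genes above 0 and none called. In the atrial list 2 of 4 genes were called lower, with a median of -6.73 and sums of 47.5, 14839 and 483 CPM in untreated. The part of cell content in the lower level of the members was not tested. Of the control factors of MHC genes, Irf1, which binds interferon elements, fell by 1.01 ± 0.28 (adjusted p = 0.0336). In a fit of the compared groups alone no member was called, and none without the libraries highest in Sln, while without those lowest in cardiomyocyte markers Psmb8 was. With a term for Eif2s3y both calls were lost and Psmb9, Psmb10 and RT1-M3-1 were called lower.

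EMPA against untreated gave 3 called members of 39, all lower, beside 0.0404% of all tested genes (0.0242% lower), which were RT1-CE16, RT1-A3 and RT1-Bb with 0 counts in both EMPA libraries, and again nothing is read from the share. With at least 10 counts required in every library the number was 0. At the floor, RT1-CE16 was lower by at least 159-fold, RT1-A3 by 11.6-fold and RT1-Bb by 43.5-fold. With a term for Eif2s3y no member was called, and in a fit of the 2 compared groups alone, without EMPA 1 or without the Sln-high libraries RT1-CE16 alone was. PFD against untreated gave 0 of 39 called, beside 0.00807% of all tested genes. By edgeR 2 members and 646 of the 12388 tested genes were under an unadjusted p of 0.05, and DESeq2 called 0 members. EMPA against HFpEF, a pair of groups alike in lacking the 3 clean genes, gave 0 of 39, beside 0.404% of all tested genes. There 10 members and 2720 of the 12388 tested genes were under an unadjusted p of 0.05 by edgeR, so nothing is read from the 10. DESeq2 called 5 members, Cd74, Ciita, RT1-Db1, RT1-DMa and RT1-DMb, all lower. Its count over all genes is not given here, so no share is read from the 5. The macrophage list was lower too, with 0 of 7 genes above 0 and a median of -1.56. The T and natural killer cell list had 0 of 5 above 0 and a median of -0.96, and the cardiomyocyte list 4 of 5 and 0.97. No gene of these lists was called by edgeR, and their part in the class II values was not tested.

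Over the 8 pairwise comparisons and the difference of differences, 25 of the 39 tested members were called at least once and 14 in none in the fit of all libraries without further terms. The members not called in that fit included B2m, Tap1, Tapbp, Psmb9 and Psmb10. RT1-N3, a nonclassical class I gene, stayed between 23.8 and 67.5 CPM, and RT1-M3-1, which presents formylated peptides, between 14.8 and 41.2 CPM. RT1-DOb, a partner chain of RT1-DOa, ranged from 0.843 to 6.05 CPM and RT1-DMb, a chain of the class II loading factor, from 0.607 to 7.11 CPM. RT1-M6-2 ranged from 0.478 to 6.53 CPM.

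The 39 class I genes were also summed in each library. The sum was 326, 397 and 382 CPM in control 5w, 633, 747 and 662 in HFpEF, 741, 823 and 621 in control 9w, and 585, 578 and 624 in untreated. It was 628 and 509 CPM in EMPA, 568 and 530 in PFD, and 488, 344 and 419 in EMPA + PFD. Control 5w and EMPA + PFD were the low groups and overlapped, and the other groups lay above them. The endothelial sum had the same low groups, with means of 1038 ± 88.1 CPM in control 5w and 1268 ± 51.1 in EMPA + PFD (SD, n = 3 each), and the same highest group, control 9w, with 2263 ± 144 (SD, n = 3). It was 1097, 1944 and 1786 CPM in HFpEF, 1932 and 1494 in EMPA and 1507 and 1586 in PFD. The sum of 10 class II genes was 239, 647 and 628 CPM in control 5w, 589, 160 and 291 in HFpEF, 126, 96.2 and 110 in control 9w, and 101 to 271 CPM in the other week 9 libraries.

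**Figure D3:**
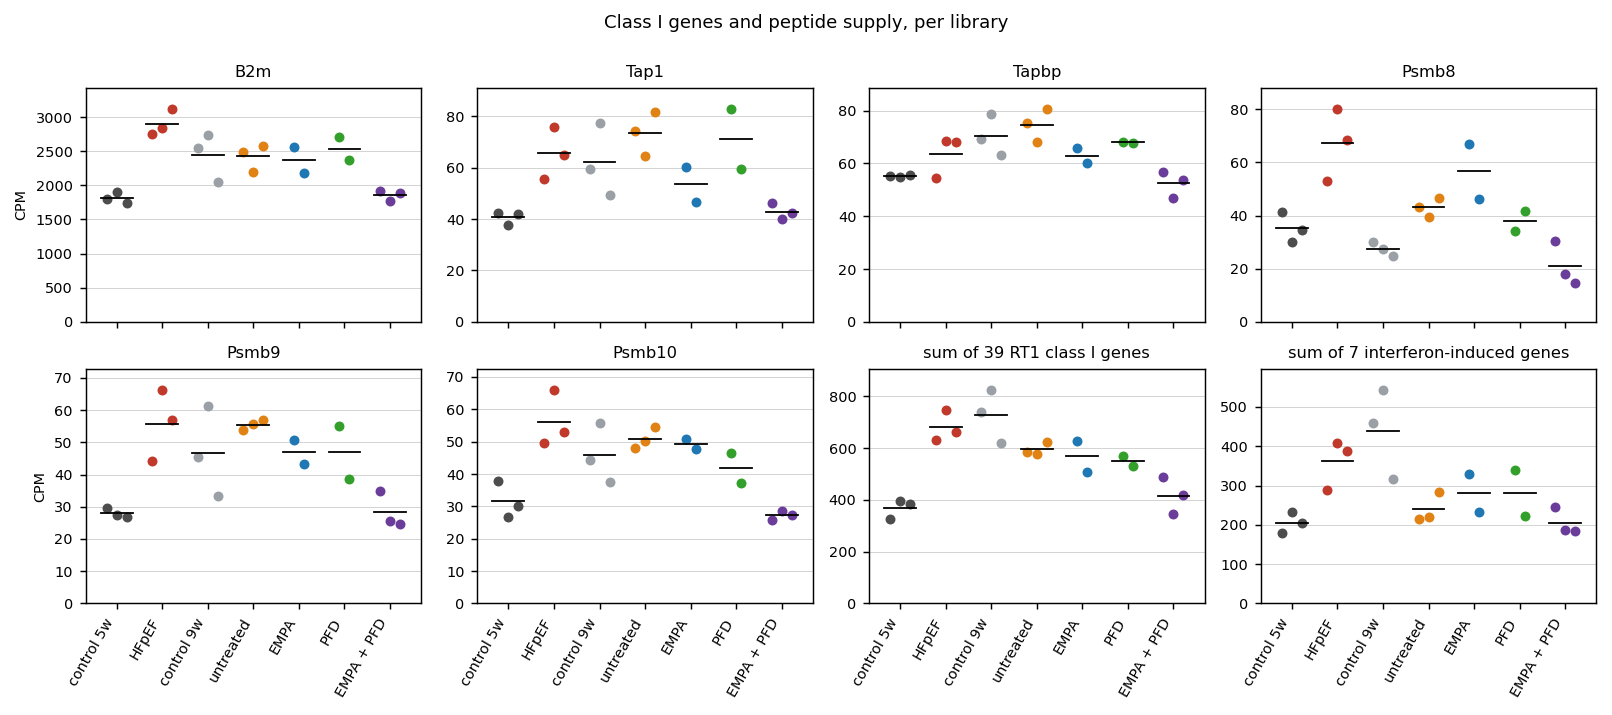
Level in CPM, on a linear scale from 0, of B2m, Tap1, Tapbp, Psmb8, Psmb9, Psmb10, the sum of 39 RT1 class I genes and the sum of 7 interferon-induced genes in each library, with the 7 groups along the horizontal axis. Points are libraries and bars group means. EMPA + PFD lies below untreated without overlap for the single genes, as for Psmb8 with 14.6 to 30.5 CPM against 39.4 to 46.8. How many of all genes separate these groups in this way was not counted, so nothing is read from how many shown here do.

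Of the genes around the members in their pathways, the interferon-induced list was called most often. In HFpEF against control 5w, 2 of 7 rose, Ifit3 by 2.15 ± 0.32 and Mx1 by 1.20 ± 0.33. In control 9w against control 5w, 4 of 7 rose, Ifit3 by 2.62, Irf7 by 1.57, Isg15 by 1.19 and Mx1 by 1.03. Irf7 fell by 1.60 ± 0.32 in untreated against control 9w. The sum of the list was 179, 232 and 204 CPM in control 5w, 288, 408 and 389 in HFpEF, 459, 542 and 316 in control 9w, 214, 219 and 284 in untreated, and 185 to 341 CPM in the drug libraries. By group mean it was highest in control 9w and lowest in control 5w and EMPA + PFD, as were RT1-S3 and the class I sum, and its part in the class I result was not tested. Of 6 genes of interferon-gamma input, Ifng and its receptor chain Ifngr1 rose in control 9w against control 5w, by 2.45 ± 0.60 and 1.13 ± 0.26. The counts of Ifng were 2, 3 and 1 in control 5w and 9, 8 and 9 in control 9w, low by the rule used for the members. The interferon-gamma input, the peptide trimming and loading genes and the constitutive proteasome list had no call in HFpEF against control 5w, in untreated against control 9w or with EMPA + PFD. In the constitutive proteasome and activator list, 5 of 6 genes were tested and none was called in any comparison, while Psmb6 had at most 3 counts in each library. Nlrc5, the class I coactivator, was not among the gene symbols.

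The promoters of the members were searched for 4 short motifs on both strands, over 250 bases before and 50 after the gene start. RefSeq, on GRCr8, held such a window for 49 of the 58 members and 33469 genes in all. The X box core ACNGATG was in 6 of 9 class II promoters, 10 of 32 class I promoters and 0 of 8 of the genes named singly, against 10.2% of all promoters. The CCAAT box GATTGG was in 9 of 9 class II, 16 of 32 class I and 2 of 8 named promoters, against 14.8% of all. Both motifs belong to the class II control region as it is known from other genes. The chains of RT1.D and RT1.B, of which 3 fell in control 9w and RT1-Bb was off in the week 5 hearts, are shown with 15 bases around the matches, in reference sequence and not that of these animals. RT1-DOa, which also fell, held a CCAAT box and no X box core and is not shown. Capitals mark the motif letters, on either strand, in chr20:4515321-4515385 (+ strand) for RT1-Da, chr20:4560197-4560286 (- strand) for RT1-Db1, chr20:4576998-4577033 (+ strand) for RT1-Ba and chr20:4604160-4604223 (- strand) for RT1-Bb.
RT1-Da: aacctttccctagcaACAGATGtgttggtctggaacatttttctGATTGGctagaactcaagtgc
RT1-Db1: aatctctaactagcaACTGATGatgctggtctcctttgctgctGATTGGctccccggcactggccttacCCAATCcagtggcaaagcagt
RT1-Ba: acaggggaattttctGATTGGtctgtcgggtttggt
RT1-Bb: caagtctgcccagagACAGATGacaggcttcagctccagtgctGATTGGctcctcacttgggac

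The kappa B site GGGATTCCC, which is read by NF-kappa B factors in class I promoters, was in 8 of 32 class I promoters and in no other member, against 0.365% of all promoters. Among the 8 were RT1-CE16 and RT1-A3, which were on/off, RT1-A1, which was highest in control 9w, and RT1-A2, which was lowest there. Their promoters are shown from the kappa B site to a CCAAT box on the other strand, both in capitals, because these 2 motifs stood in genes with opposite patterns. The X box core letters were also in RT1-CE16 and RT1-A3, inside the stretches shown and left in lower case, and not in RT1-A1 or RT1-A2. They are at chr20:3265444-3265588 (- strand) for RT1-CE16, chr20:4849267-4849420 (+ strand) for RT1-A3, chr20:4907069-4907208 (+ strand) for RT1-A1 and chr20:4872683-4872835 (+ strand) for RT1-A2. In local alignments of the full windows, the 6 pairs of these genes were 84.5% to 92.4% identical. RT1-CE16 was 87.7% identical to RT1-A3, 87.0% to RT1-A2 and 84.5% to RT1-A1, and RT1-A3 was 89.8% identical to RT1-A1 and 86.3% to RT1-A2.
RT1-CE16: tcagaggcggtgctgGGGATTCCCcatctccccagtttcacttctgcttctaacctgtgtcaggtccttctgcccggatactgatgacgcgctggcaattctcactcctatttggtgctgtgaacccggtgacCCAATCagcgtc
RT1-A3: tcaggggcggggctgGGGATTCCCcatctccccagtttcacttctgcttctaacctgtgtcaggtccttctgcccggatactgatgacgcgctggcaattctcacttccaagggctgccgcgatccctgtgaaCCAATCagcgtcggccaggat
RT1-A1: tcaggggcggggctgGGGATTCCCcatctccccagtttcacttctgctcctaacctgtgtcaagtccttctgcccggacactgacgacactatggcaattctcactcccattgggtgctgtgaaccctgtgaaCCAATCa
RT1-A2: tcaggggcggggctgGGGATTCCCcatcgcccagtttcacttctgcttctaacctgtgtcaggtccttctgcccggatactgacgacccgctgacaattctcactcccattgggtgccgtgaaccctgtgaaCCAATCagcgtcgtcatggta

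The interferon element GAAANNGAA was in 6 of the 8 named promoters, B2m, Tap1, Tap2, Tapbp, Psmb8 and Psmb10, in 3 of 32 class I promoters, RT1-S3, RT1-N3 and RT1-S2, and in 0 of 9 class II promoters, against 9.71% of all. The promoters of Psmb10 at chr19:50743293-50743380 (- strand), Tapbp at chr20:4967878-4967918 (- strand), Tap1 at chr20:4668640-4668678 (- strand) and B2m at chr3:129549165-129549203 (+ strand) are shown as examples of the element before the gene start. Psmb8, the gene of this group that fell in EMPA + PFD, also held the element, across its start, and Psmb9, which was lower there without overlap, held none. Overlapping matches run together in capitals, and a match describes letters and not a bound site.
Psmb10: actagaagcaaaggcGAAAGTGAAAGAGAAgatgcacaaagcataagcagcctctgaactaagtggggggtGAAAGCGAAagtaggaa
Tapbp: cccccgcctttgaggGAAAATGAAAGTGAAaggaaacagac
Tap1: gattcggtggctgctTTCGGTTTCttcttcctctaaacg
B2m: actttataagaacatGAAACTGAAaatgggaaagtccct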

How the data were processed

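The authors deposited whole counts per gene symbol and library, without normalization. Per the labels they trimmed reads with Trim Galore, checked them with FastQC, used HISAT2 for alignment to rn6, HTSeq for counting and DESeq2 for testing, and the labels gave no versions, while the paper gives that of iDEP, through which DESeq2 was run. All 19 libraries were grouped by their labels, and 0 columns were left unmapped. Replicate libraries of a group were compared gene by gene, and no pair held the same counts.

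Counts were scaled by TMM and fitted for the 7 groups together in edgeR 4.0.16 under R 4.3.3, with filterByExpr, which kept 12388 genes, and the quasi-likelihood test with Benjamini-Hochberg adjustment over all of them. Calls needed an adjusted p under 0.05 and at least a 2-fold difference. The fit was tested on simulated data. CPM are TMM-scaled, errors of means are SD, and intervals of count ratios are exact at 95%. Alternatives were another scaling, other filters, DESeq2 1.42.0, the compared groups alone, a replicate block, a term for Eif2s3y, the adjusted p alone, the omission of each library, other count floors and thinned counts.

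Named are the clean on/off members, every member called, the 9 genes named by symbol, the remaining graded RT1 genes of class I and class II, and the pathway genes called. The members and lists were chosen with earlier results of these data known. Motifs were matched as plain letters, and promoter windows were aligned locally with a match score of 1, a mismatch score of -1 and gap scores of -3 and -1.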

Additional observations from a re-analysis of the deposited data

Results flagged for a closer look

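The difference between the disease effects at week 9 (untreated against control 9w) and at week 5 (HFpEF against control 5w) was tested itself, and 10 members were flagged because this difference between groups was called. On the log2 scale it was 1.39 for Cd74 and 5.48 for RT1-N2. The latter is a fitted value over a group at 0 counts and no estimate of the size, since by the floor of 3 counts the week 9 part is only known to be at least 2.62-fold. It was -1.41 for RT1-A1, -1.90 for RT1-CE10, -1.74 for RT1-CE3, -1.93 for RT1-S3, -2.37 for RT1-T24-2, -1.97 for RT1-T24-3 and -1.33 for Tap2. For RT1-CE16 it was -3.06, where the week 5 part rests on 0 to 3 counts per library. The adjusted p by edgeR ran from 0.000343 for RT1-S3 to 0.048 for RT1-CE3. The call was lost in 8 of 12 fits without 1 library for Cd74 and RT1-CE16, in 9 for RT1-CE3, and in 2 each for RT1-A1 and RT1-T24-2. Control 9w is the reference of the week 9 effect, and it had the highest or lowest group mean for each of these members except RT1-T24-3. The cause of these differences was not tested.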

How the results depend on the processing

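No value of a called member reversed under any setting. Of 50 such log2 differences, RLE scaling kept 50 calls, DESeq2 49, no filter beyond 1 count 48, the replicate block 44 and a term for Eif2s3y 36; the compared groups alone kept 38 of 48 (RT1-N2 did not pass the filter in the other 2), a filter of 10 counts in every library 26 of 26, and the omission of 1 library 282 of 357. Of the fits chosen after seeing the data, the fit without the libraries highest in Sln kept 29 of 48, the lowest share, and that without those lowest in cardiomyocyte markers 22 of 26. Counts of called members that moved follow. They stand without the number of all genes called in the same fit, so no share is read from them. With at least 10 counts in every library, which removes the genes at 0, they were 3 for untreated against control 9w, 13 for control 9w against control 5w, 0 for untreated against HFpEF and for EMPA, and 6 for the difference of disease effects. DESeq2 gave 8 for untreated against HFpEF and 5 for EMPA against HFpEF. The compared groups alone gave 1 for untreated against HFpEF, 0 for EMPA + PFD and 1 for EMPA. The term for Eif2s3y gave 7 for HFpEF against control 5w, 0 for untreated against control 9w, 5 for untreated against HFpEF and 0 for EMPA. The adjusted p alone gave 13 for HFpEF against control 5w and 9 for EMPA + PFD. Chosen after seeing the data, the fit without the libraries lowest in cardiomyocyte markers (HFpEF 1 and untreated 2) gave 7 for HFpEF against control 5w and 1 for EMPA + PFD. The fit without those highest in Sln (control 9w 1 and 3 and untreated 2), also chosen after seeing the data, gave 5 for untreated against HFpEF, 0 for EMPA + PFD and 1 for EMPA. It leaves control 9w with 1 library, so the calls it lost in comparisons with control 9w, which enter its share above, cannot be read. The cause of these moves was not tested. Without 1 library in turn the counts ran from 1 to 7 for HFpEF against control 5w, from 0 to 6 for untreated against control 9w, from 22 to 25 for control 9w against control 5w, from 3 to 10 for untreated against HFpEF, from 0 to 5 for EMPA + PFD, from 1 to 3 for EMPA, from 0 to 2 for EMPA against HFpEF, from 6 to 10 for the difference, and stayed at 0 for PFD. The replicate block moved the count for EMPA to 1. Libraries with the same number did not consistently deviate together (30 pairs, r from -0.53 to 0.49, median -0.0638, 5 over 0.1). These values give no consistent sign that the numbers pair the hearts, and they cannot exclude it. With 10 counts as the floor 16 members were on/off, 4 of them clean, and 22 graded, and with libraries thinned to 7430539 counts 9 were on/off, 3 of them clean, and 29 graded. Groups of 2 or 3 hearts, counts near the floor, reads shared by RT1 copies and the unknown counting settings limit these results.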

Other observations

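Genes that are not members but lie between RT1 genes in the gene table were looked at after the member results were seen. Of 114 such genes in the data 87 were tested. In HFpEF against control 5w 7 of them rose, 8.05% of those tested beside 4.28% of all tested genes, among them the complement genes Cfb, by 2.51 ± 0.33 on the log2 scale (SE), and C4b, by 1.97 ± 0.55. Cfb had 12.3, 15.4 and 16.9 CPM in control 5w, 132, 42.7 and 80.3 in HFpEF, 75.4, 47.8 and 72.0 in control 9w and 27.9, 47.4 and 31.7 in untreated. HFpEF and control 9w overlapped for Cfb and both lay above control 5w. C4b had 40.4, 33.5 and 36.5 CPM in control 5w and 255, 40.4 and 136 in HFpEF, so HFpEF 2 was at the control level and HFpEF 1, the library lowest in cardiomyocyte markers, was the highest. Ubd, a ubiquitin-like gene, had 8.95, 4.89 and 2.87 CPM in control 5w, 11.0, 27.5 and 11.3 in HFpEF, 7.78, 9.35 and 3.59 in control 9w and 23.8, 19.3 and 25.6 in untreated, with each disease group above its control.

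In control 9w against control 5w 6 of the 87 rose and 3 fell, together 10.3% of those tested, beside 14.7% of all genes called in either direction. Ddah2, a gene of the class III stretch, fell by 1.36 ± 0.26 and had 106, 127 and 125 CPM in control 5w, 51.3, 46.2 and 41.5 in control 9w, 115 and 122 in EMPA, and 71.7, 42.2 and 26.1 in EMPA + PFD. The 4 libraries without RT1-N2 included the 2 lowest for Ddah2, EMPA + PFD 3 and control 9w 3. In EMPA + PFD against untreated 1 of the 87 was called, Lst1, which fell by 1.48 ± 0.46, and in untreated against control 9w, untreated against HFpEF, EMPA, PFD and EMPA against HFpEF the number was 0.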
